A study of Mus musculus with 26 samples.

Results

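The insulin-like growth factor (IGF) axis was followed in mouse fat by diet and by cell fraction through 10 genes. The ligands are Igf1 (ENSMUSG00000020053) and Igf2 (ENSMUSG00000048583), and the receptors are Igf1r (ENSMUSG00000005533) and Igf2r (ENSMUSG00000023830). The binding proteins are Igfbp2 (ENSMUSG00000039323), Igfbp3 (ENSMUSG00000020427), Igfbp4 (ENSMUSG00000017493), Igfbp5 (ENSMUSG00000026185), Igfbp6 (ENSMUSG00000023046) and Igfbp7 (ENSMUSG00000036256). The genes were taken by symbol from the tables of both fractions, and 10 of the 10 listed symbols were found among the 39017 gene identifiers that both tables hold. IGF1 and IGF2 are secreted relatives of insulin that signal through the tyrosine kinase receptor encoded by Igf1r, whereas the Igf2r product, also the cation-independent mannose 6-phosphate receptor, takes IGF2 into lysosomes and sorts lysosomal enzymes. The binding proteins hold the ligands in the circulation and around cells, where they withhold or deliver them, and Igfbp7 binds IGFs only weakly. In fat, IGF1 is made locally under growth hormone and acts on the growth and differentiation of precursor cells, and in the mouse Igf2 is read from the paternal and Igf2r from the maternal allele in most tissues.

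The study asked what differs between fat of lean, obese and formerly obese mice. All mice were male wild type C57BL/6J, aged 9 to 10 weeks when the diets began. LFD mice ate a diet with 10% fat for 12 weeks, and HFD mice ate a diet with 60% fat for 12 weeks. SW mice ate the 60% fat diet for 9 weeks and then the 10% fat diet for 3 weeks. Epididymal fat was digested with collagenase and centrifuged to part floating adipocytes from the stromal vascular cells (SVC), a mixture of immune, vessel and connective tissue cells, and polyadenylated RNA was sequenced. Red blood cells in the SVC pellet were lysed before RNA was taken. The adipocyte data hold 3 libraries per diet, numbered 404, 405 and 406 for LFD, 401, 402 and 403 for HFD, and 407, 408 and 409 for SW, and values are listed in this order throughout. The labels list 3 libraries per group in SVC too, but 3 SVC columns could not be assigned to a group by name and were not used here. That leaves 1 LFD library (236), 2 HFD libraries (212 and 411) and 3 SW libraries (412, 413 and 414) of SVC. Nothing ties these numbers to a mouse, so it is unknown whether libraries of both fractions came from the same animals. The adipocyte libraries held 6142895, 19720207 and 7510142 counts for LFD, 12223677, 23725647 and 22162837 for HFD and 11314661, 16271834 and 13722008 for SW. The SVC libraries held 5781902 counts for LFD, 13106471 and 17818059 for HFD and 10155860, 22195810 and 10121939 for SW.

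Levels are given in CPM, the counts of a gene relative to the total of its library, scaled between libraries by trimmed mean of M values (TMM) factors. The labelled fractions were checked against marker genes on a scale shared by all 15 libraries. The 7 adipocyte markers summed to 3506 to 21446 CPM in adipocyte libraries and 113 to 870.2 CPM in SVC libraries, with Cfd, Cidec, Lep or Lipe as the most abundant gene. The 9 macrophage markers, led by Lyz2 in 14 of the 15 libraries, summed to 5279.7 to 16727 CPM in SVC. In the adipocyte libraries they summed to 427 to 763 CPM for LFD, 6365 to 7465 CPM for HFD and 4419 to 6134 CPM for SW. The adipocyte libraries of HFD mice and SW library 407 thus held more macrophage RNA than the SVC library of LFD mice and less than every SVC library of HFD and SW mice, while SW libraries 408 and 409 lay below all SVC libraries. Of all markers in the 9 cell type lists, Ms4a1 in LFD library 404 was the one at 0 counts. In bulk RNA, fewer cells of a type and less RNA per cell cannot be told apart, and this holds for each diet difference below.

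The 2 SVC libraries of HFD mice were unlike each other. Mitochondrial genes took 6.34% (95% Wilson interval 6.32% to 6.35%) of the counts in library 212 and 33.5% (95% Wilson interval 33.4% to 33.5%) in library 411. Hemoglobin genes took 0.287% (95% Wilson interval 0.284% to 0.289%) in library 212 and 3.09% (95% Wilson interval 3.09% to 3.10%) in library 411. These intervals cover counting error alone. In SW libraries 412, 413 and 414 mitochondrial genes took 5.64%, 5.77% and 9.54% and hemoglobin genes 3.27%, 2.76% and 3.57%, and in LFD library 236 they took 4.36% and 5.15%. Library 411 thus had the highest mitochondrial share of the 6 SVC libraries and library 212 the lowest hemoglobin share. The part of these shares in differences between SW and HFD SVC was not tested. The spread between both libraries over all genes was 376 times that of counting noise, against 25.5 to 59.9 times between pairs of SW libraries of SVC. Each member called in a comparison with these libraries is therefore given with and without each of them. Among adipocytes, SW library 407 stood apart: its spread against libraries 408 and 409 was 89.5 and 80.4 times counting noise, against 12.8 between those.

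Between genes, levels were compared per kilobase of the longest annotated transcript, on the scale shared by all 15 libraries. In adipocytes of LFD mice the binding proteins led this order. Igfbp7 stood highest with 293 ± 51.0 CPM per kilobase (SD, n = 3), before Igfbp4 with 145 ± 20.8 (SD, n = 3) and Igfbp6 with 79.9 ± 24.6 (SD, n = 3). These 3 kept places 1 to 3 in adipocytes of each diet, and at each step the libraries did not overlap. The middle of the order held Igfbp5 at 28.7, Igf1 at 26.9 and Igfbp3 at 26.2 CPM per kilobase in LFD mice, whose libraries overlapped from gene to gene. Below them came Igfbp2 at 7.16, Igf2r at 5.78 and Igf2 at 4.98 CPM per kilobase, again with overlapping neighbours. Igf1r was lowest in both fractions and on each diet, at 0.170 CPM per kilobase in LFD, 0.263 in HFD and 0.103 in SW adipocytes. Its 10 to 82 counts per adipocyte library make it the least precisely measured member beside Igfbp2, which had 16 to 119 counts there.

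In SVC the order began differently. Igfbp6 stood first at 1131 CPM per kilobase in the LFD library, 251 on average in HFD and 681 in SW, ahead of Igfbp4 or Igfbp7. In SW mice Igfbp4 at 591 CPM per kilobase overlapped Igfbp6, and Igfbp7 at 254 stood apart below both. In HFD mice Igfbp6, Igfbp7 at 236 and Igfbp4 at 187 CPM per kilobase overlapped each other. The order is partly a matter of the length used: with the merged length of all exons, 16 of the 60 places shifted, each by 1 place and none within the leading 3.

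The comparison of HFD with LFD adipocytes asks what obesity goes with. Of the 10 members, 5 passed the test between 3 HFD and 3 LFD libraries, at an adjusted p threshold of 0.05 over all genes, and 51.5% of the 14461 genes tested (7448) did so. The members' share is thus close to that of all genes and is not a result about the axis. Igf2r rose, and Igf2, Igfbp2, Igfbp3 and Igfbp4 fell. The libraries of both diets did not overlap for 7 of the 10 members, with 2 members above and 5 below LFD mice, and for 62.7% of all genes tested, so this share too is near that of all genes. The members' median log2 fold change was -0.45, against -0.025 over all genes.

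Among the ligands, Igf2, the fetal growth factor, stood at 26.5, 28.1 and 24.5 CPM in the LFD libraries and 8.19, 3.59 and 4.25 CPM in the HFD libraries. Each HFD library lay far below each LFD library, and the fall was 5.06-fold (log2 fold change -2.34, SE 0.27, adjusted p = 9.33e-05). Igf1, the ligand made under growth hormone, stood at 196, 214 and 228 CPM in LFD and 262, 270.2 and 275 CPM in HFD libraries. Every HFD library was above every LFD library, yet the difference did not pass (log2 fold change 0.34, SE 0.14, adjusted p = 0.0641). It passed with DESeq2 (0.0303) and in a fit of the compared groups alone (0.0422), within a range of 0.0303 to 0.165 over all alternatives. The per-kilobase ratio of Igf1 to Igf2 was 4.97, 5.09 and 6.24 in the LFD libraries and 21.5, 50.4 and 43.3 in the HFD libraries.

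Of the receptors, Igf2r, which clears IGF2, stood at 72.3, 49.7 and 51.3 CPM in LFD and 241, 132 and 198 CPM in HFD libraries. The groups did not overlap, HFD library 402 being nearest to the LFD mice, and Igf2r was 3.30-fold higher in HFD mice (log2 fold change 1.72, SE 0.23, adjusted p = 0.000204). Igf2 and its clearing receptor thus differed in opposite directions between the same libraries. The macrophage markers moved the same way as Igf2r: 9 of 9 rose, and they summed to 868, 794 and 474 CPM in LFD and 8249, 7002 and 8254 CPM in HFD libraries, with Lyz2 as the most abundant. Their part in the rise of Igf2r was not tested. Igf1r, the signalling receptor, stood at 3.01, 1.55 and 1.98 CPM in LFD and 4.21, 2.13 and 3.67 CPM in HFD libraries. The groups overlapped and the difference did not pass (log2 fold change 0.66, SE 0.38, adjusted p = 0.168).

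**Figure D1:**
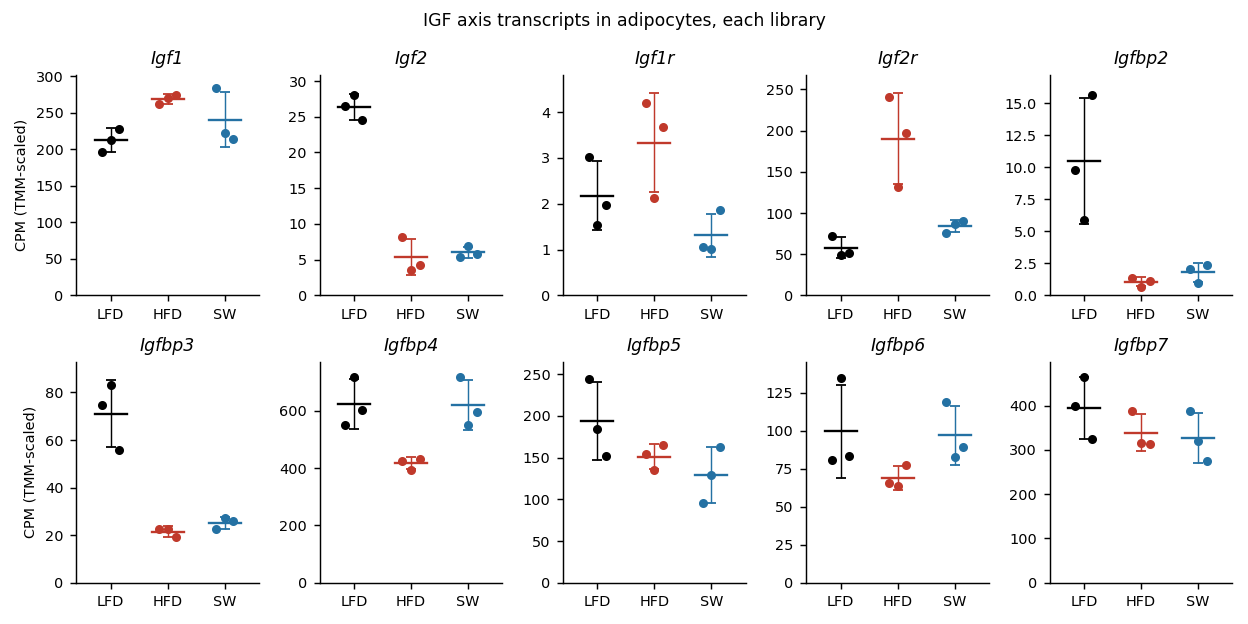
Levels of the 10 genes in the 9 adipocyte libraries, in TMM-scaled CPM on the vertical axis and by diet (LFD, HFD, SW) on the horizontal axis, with points for libraries and bars for the mean ± SD (n = 3). Igf2, Igfbp2 and Igfbp3 are high in LFD mice and low in both HFD and SW mice, whereas Igf2r is highest in HFD mice.

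Among the binding proteins, Igfbp2, which is secreted by fat precursor cells, stood at 9.83, 5.93 and 15.7 CPM in LFD and 1.35, 0.668 and 1.16 CPM in HFD libraries. The LFD libraries spread widely, from library 405 to library 406, but all were above the HFD libraries, and the fall was 9.90-fold (log2 fold change -3.31, SE 0.46, adjusted p = 0.000281). Igfbp3, the main carrier of IGFs in blood, stood at 74.5, 83.1 and 55.8 CPM in LFD and 22.8, 22.8 and 19 CPM in HFD libraries. The groups stood well apart, and Igfbp3 fell 3.31-fold (log2 fold change -1.73, SE 0.16, adjusted p = 2.82e-05). Igfbp4, an inhibitor of IGF action that proteases cleave to free the ligand, stood at 549, 718 and 604 CPM in LFD and 426, 394 and 432 CPM in HFD libraries. It fell by a smaller step (log2 fold change -0.58, SE 0.16, adjusted p = 0.0129) that was no longer called without LFD library 405 (log2 fold change -0.46, adjusted p = 0.0636), with 0.000484 to 0.0636 as the range of adjusted p over all alternatives. Igfbp6, which prefers IGF2, was at 99.7 ± 30.5 CPM (SD, n = 3) in LFD and 69.0 ± 7.68 CPM (SD, n = 3) in HFD libraries and narrowly missed the threshold (log2 fold change -0.54, SE 0.21, adjusted p = 0.0566). It passed without LFD library 404 or LFD library 406 (log2 fold changes -0.67 and -0.65, with adjusted p of 0.0346 and 0.0497) and with DESeq2 (0.0447), with upper-quartile scaling (0.0243), with counts thinned to the smallest library (0.0441) and in a fit of the compared groups alone (0.0459), in a range of 0.0243 to 0.284. Igfbp5 (log2 fold change -0.36, SE 0.22, adjusted p = 0.193) and Igfbp7 (log2 fold change -0.22, SE 0.18, adjusted p = 0.334) did not pass, and their libraries overlapped.

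Markers of vessel and surface cells fell beside these genes in the adipocyte libraries. Of 7 mural cell markers 4 fell, and the list summed to 2073, 1907 and 1638 CPM in LFD and 853, 599 and 618 CPM in HFD libraries, with Rgs5 as the most abundant. Of 6 mesothelial markers 4 fell, from 86.4, 76.6 and 105 CPM in LFD to 37.4, 12.3 and 23.6 CPM in HFD libraries, with Upk3b or Krt19 leading. Of 8 endothelial markers 6 fell, from 2033, 2038 and 1676 CPM in LFD to 1483, 802 and 759.8 CPM in HFD libraries, with Pecam1 leading in LFD and Cdh5 in HFD libraries. These sums fell together with Igf2, Igfbp2, Igfbp3 and Igfbp4, and so did the adipocyte and erythroid sums given next. The part of any of these lists in those results was not tested. Of 7 adipocyte markers 5 fell, from 13200.4, 17042 and 23798 CPM in LFD to 3925, 8004 and 5106 CPM in HFD libraries, and 5 of 5 erythroid markers, led by Hbb-bs, fell from 2133, 2840.3 and 3206 CPM to 761, 612 and 683 CPM. Of 8 fibroblast and progenitor markers 3 rose and 1 fell, and the list, led by Dcn or Col3a1, summed to 2807, 3096 and 2106 CPM in LFD and 6943, 5383 and 7305 CPM in HFD libraries. The T cell markers, led by Cd2 or Cd3d, summed to at most 39.6 CPM and the B cell markers, led by Cd79a or Cd79b, to at most 25.9 CPM in any adipocyte library.

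The comparison of SW with HFD adipocytes sets mice moved to the LFD for 3 weeks against mice kept on the HFD for 12 weeks. No mice were sampled at the switch, so rises and falls here are differences between groups. Of the 10 members 3 passed, beside 31.4% of the 14461 genes tested (4546), so the members' share is again near that of all genes. Both receptors fell and Igfbp4 rose. The members' median log2 fold change was 0.085, against 0.0069 over all genes. Without HFD library 403 the count of members called was 1 and that over all genes 1522. Without SW library 407 these counts were 1 and 3455, and without HFD library 401 they were 2 and 2299.

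Igf2r stood at 76.0, 86.8 and 89.8 CPM in the SW libraries, all below the 241, 132 and 198 CPM of the HFD libraries. It fell 2.26-fold (log2 fold change -1.17, SE 0.22, adjusted p = 0.00704), and it was called in every alternative run. Of 9 macrophage markers 4 fell as well, and their sum was 6885, 5204 and 4920.2 CPM in SW libraries. Their part in the fall of Igf2r was not tested. Igf1r stood at 1.05, 1.02 and 1.86 CPM in the SW libraries, each below each HFD library. It fell as well (log2 fold change -1.32, SE 0.38, adjusted p = 0.0265), but the call was lost without HFD library 401, HFD library 403, SW library 407 or SW library 408 (log2 fold changes -1.14, -1.26, -1.21 and -1.17, with adjusted p of 0.0826, 0.0869, 0.0685 and 0.0773) and with counts thinned to the smallest library (0.0863), in a range of 0.0102 to 0.0869 over all alternatives.

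Igfbp4 stood at 717, 550.5 and 595 CPM in the SW libraries, each above each HFD library and in the range of the LFD libraries. It rose (log2 fold change 0.57, SE 0.16, adjusted p = 0.0251), but the call was lost without HFD library 401, HFD library 402, HFD library 403 or SW library 407 (log2 fold changes 0.58, 0.51, 0.58 and 0.46, with adjusted p of 0.0683, 0.0693, 0.0862 and 0.0538) and with no filter on low counts (0.0539), in a range of 0.00122 to 0.0862. Igfbp6 was at 97.1 ± 19.4 CPM (SD, n = 3) in SW libraries, each above each HFD library, and did not pass (log2 fold change 0.49, SE 0.21, adjusted p = 0.100). The 3 genes that fell most in HFD adipocytes showed no call after the switch. Igf2 was at 5.36, 6.91 and 5.79 CPM in SW libraries, within the range of the HFD libraries (log2 fold change 0.22, SE 0.27, adjusted p = 0.564). This value leaned on the HFD libraries: it was 0.62 with an adjusted p of 0.0422 without library 401 and -0.037 with 0.925 without library 402, the ends of 0.0422 to 0.925 over all alternatives. Igfbp2 was at 2.10, 0.961 and 2.36 CPM (log2 fold change 0.77, SE 0.48, adjusted p = 0.235) and Igfbp3 at 22.5, 27.3 and 26.1 CPM (log2 fold change 0.24, SE 0.16, adjusted p = 0.274) in SW libraries, and both overlapped the HFD libraries. Igf1, Igfbp5 and Igfbp7 had log2 fold changes of -0.16, -0.23 and -0.048, with adjusted p of 0.386, 0.442 and 0.862. Of the marker lists, 4 of 7 adipocyte markers rose, and of the mural markers 2 rose and 1 fell, with sums of 8822, 10235 and 10679.8 CPM and 678, 750.2 and 781 CPM in SW libraries. The mesothelial markers summed to 24.0, 32.9 and 37.5 CPM there. Of 8 fibroblast and progenitor markers 2 fell and 1 rose, with sums of 4185, 4131 and 3568 CPM, and 4 of 5 erythroid markers rose, to sums of 2135, 1316 and 1523 CPM. Of the rest, 1 of 8 endothelial, 1 of 5 T cell and 2 of 4 B cell markers tested rose. What these lists add to the members' changes was not tested.

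SW adipocytes against LFD adipocytes ask what differed from lean mice after the switch. Of the 14461 genes tested 17.1% passed (2468), and whether the members' share differs from this was not tested. Of the 10 members 3 passed, all lower in SW mice. They were Igf2, Igfbp2 and Igfbp3, and the libraries of both diets did not overlap for any of these genes, as for 36.7% of all genes tested. The members' median log2 fold change was -0.43, against 0.00056 over all genes. Igf2 was 4.36-fold lower (log2 fold change -2.12, SE 0.27, adjusted p = 0.000511), Igfbp2 was 5.80-fold lower (log2 fold change -2.54, SE 0.44, adjusted p = 0.00347), and Igfbp3 was 2.81-fold lower (log2 fold change -1.49, SE 0.16, adjusted p = 0.000187). Each of these calls held in every alternative run, without any of the 6 libraries included. This comparison shares its LFD libraries with that of HFD against LFD, where the same genes had log2 fold changes of -2.34, -3.31 and -1.73. Beside them 4 of 7 mural, 2 of 6 mesothelial, 7 of 8 endothelial, 3 of 5 erythroid and 1 of 7 adipocyte markers were below LFD mice. Above LFD mice were 9 of 9 macrophage markers, with a median log2 fold change of 3.00, and 1 of 8 fibroblast and progenitor markers. What these lists add to the results, and to the values of Igf2r, was not tested.

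Igf2r in SW mice lay between the other diets, with every SW library above every LFD library, and did not pass (log2 fold change 0.55, SE 0.22, adjusted p = 0.118). Igfbp5 stood at 245, 184 and 152 CPM in LFD and 95.2, 129.5 and 162 CPM in SW libraries, which overlapped (log2 fold change -0.58, SE 0.22, adjusted p = 0.0956). It passed with DESeq2 (0.0477) and without SW library 409 (log2 fold change -0.78, adjusted p = 0.0476), in a range of 0.0476 to 0.276. Igf1r, Igf1 and Igfbp7 had log2 fold changes of -0.67, 0.18 and -0.27, with adjusted p of 0.292, 0.425 and 0.348. Igfbp4 and Igfbp6 were at log2 fold changes of -0.0066 and -0.047, with adjusted p of 0.985 and 0.908.

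HFD and SW adipocytes together against LFD share all 9 libraries with the comparisons above and ask how the average of both groups differs from LFD. A gene that differs mainly in the HFD or the SW group can pass here. Of the 10 members 4 passed, beside 40.1% of all genes tested (5802), which is the same share. Igf2r was higher (log2 fold change 1.14, SE 0.20, adjusted p = 0.00164), though it did not pass between SW and LFD adipocytes (log2 fold change 0.55, adjusted p = 0.118). Igf2 (log2 fold change -2.23, SE 0.22, adjusted p = 4.46e-05), Igfbp2 (log2 fold change -2.92, SE 0.36, adjusted p = 0.000191) and Igfbp3 (log2 fold change -1.61, SE 0.13, adjusted p = 1.96e-05) were lower. The members' median log2 fold change was -0.29, against -0.016 over all genes. Igfbp4 missed the threshold (log2 fold change -0.29, SE 0.14, adjusted p = 0.116) and passed without SW library 407 (log2 fold change -0.35, adjusted p = 0.0401) and with upper-quartile scaling (0.0435), in a range of 0.0401 to 0.432. Igfbp5 missed it too (log2 fold change -0.47, SE 0.19, adjusted p = 0.0671) and passed without LFD library 406 or SW library 409 (log2 fold changes -0.62 and -0.57, with adjusted p of 0.0440 and 0.0323) and with DESeq2 (0.0427) and with upper-quartile scaling (0.0410), in a range of 0.0323 to 0.298. Igf1, Igf1r, Igfbp6 and Igfbp7 had adjusted p of 0.118, 0.992, 0.227 and 0.239. In the same comparison 9 of 9 macrophage and 5 of 8 fibroblast and progenitor markers were higher, and 8 of 8 endothelial, 4 of 7 mural, 4 of 6 mesothelial, 5 of 7 adipocyte and 5 of 5 erythroid markers were lower. Their part in the members' differences was not tested.

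**Figure D2:**
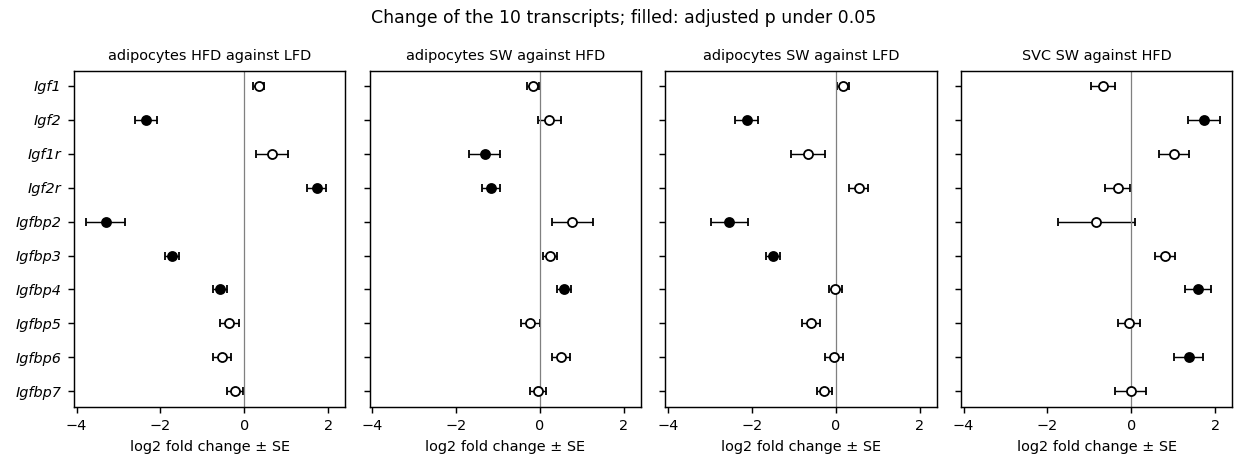
Log2 fold changes on the horizontal axis, with error bars of 1 SE, for the 10 genes listed on the vertical axis. The 4 comparisons are HFD against LFD, SW against HFD and SW against LFD adipocytes (n = 3 each), and SW (n = 3) against HFD (n = 2) SVC. Filled points have an adjusted p under 0.05, and Igf2, Igfbp2 and Igfbp3 are filled and left of 0 in both comparisons with LFD adipocytes.

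In SVC the LFD group has 1 library, and its values are given with no test. That library, 236, was the highest of the 6 SVC libraries for 8 of the 10 members and the lowest for 1, Igf2r. Of the 16319 genes tested in SVC it was highest for 22.3% and lowest for 25.5%, and whether the members' share differs was not tested. Igf2 stood at 22.9 CPM in it, 3.25 and 2.0 CPM in the HFD libraries and 10.4, 8.72 and 7.23 CPM in the SW libraries. Igf2 was thus highest in the LFD library, lowest in both HFD libraries and between them after the switch. The same order held for Igfbp4, at 3404 CPM in the LFD library, 540.2 and 723 CPM in HFD and 1921, 1659 and 2104 CPM in SW libraries. It held for Igfbp6 as well, at 1013 CPM in the LFD library, 168 and 322 CPM in HFD and 662, 651 and 585 CPM in SW libraries. Igfbp3 and Igf1r had this order too, at 49.9 and 10.5 CPM in the LFD library, with their HFD and SW values given below. Library 236 also had the highest sums of mural (1078 CPM), mesothelial (857 CPM), endothelial (1149.6 CPM) and fibroblast and progenitor markers (15424 CPM). It was highest as well for adipocyte (701 CPM) and erythroid markers (52616 CPM), and had the lowest sum of macrophage markers (4255 CPM). Their part in its values was not tested.

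SW against HFD SVC, with 3 against 2 libraries, compares the same diets in the cells around the adipocytes, again without mice sampled at the switch. Igf2, Igfbp4 and Igfbp6 rose, 3 of the 10 members beside 17.5% of the 16319 genes tested (2849). Whether the members' share differs from that of all genes was not tested. For each of the 3 the SW libraries lay above both HFD libraries. The members' median log2 fold change was 0.40, against 0.034 over all genes. Igf2 rose 3.33-fold (log2 fold change 1.74, SE 0.38, adjusted p = 0.0396), Igfbp4 rose 3.00-fold (log2 fold change 1.58, SE 0.31, adjusted p = 0.0377), and Igfbp6 rose 2.59-fold (log2 fold change 1.37, SE 0.34, adjusted p = 0.0454). Mural markers moved with them: 4 of 7 rose and 1 fell, and the list, led by Pdgfrb, summed to 357 and 199 CPM in HFD and 695, 695 and 629 CPM in SW libraries. Of 8 fibroblast and progenitor markers 1 rose and 1 fell, with sums of 9982 and 6482 CPM in HFD and 8577, 10751 and 10588 CPM in SW libraries. Of 8 endothelial markers 2 rose, and of 9 macrophage markers 1 fell. Their part in the rises was not tested.

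These calls were fragile, while the direction of the 3 genes was not. In edgeR's test 0 members passed without HFD library 212, where 6 had an unadjusted p under 0.05. Without SW library 412, 413 or 414, 0 members passed as well, where 3, 4 and 4 had an unadjusted p under 0.05. Without HFD library 411 the count was 5. With all libraries, 4 members passed by DESeq2 and 3 by limma-voom. Over all genes the count was 503 without HFD library 212, 6213 without HFD library 411, and 593 without SW library 414. It was 0 without SW library 412 and 0 without SW library 413, where edgeR gave 4217 and 5435 genes with an unadjusted p under 0.05. With all libraries DESeq2 called 5222 genes and limma-voom 1719. The call of Igf2 was lost without HFD library 212, SW library 412, SW library 413 or SW library 414 (log2 fold changes 2.20, 1.60, 1.65 and 1.86, with adjusted p of 0.0533, 0.156, 0.0787 and 0.0648), in a range of 0.00142 to 0.156. The call of Igfbp4 was lost without HFD library 212, SW library 412, SW library 413 or SW library 414 (log2 fold changes 1.46, 1.57, 1.58 and 1.50, with adjusted p of 0.0693, 0.155, 0.0620 and 0.0772), in a range of 5.72e-08 to 0.155. The call of Igfbp6 was lost without HFD library 212, SW library 412, SW library 413 or SW library 414 (log2 fold changes 1.05, 1.34, 1.26 and 1.42, with adjusted p of 0.0726, 0.162, 0.101 and 0.0870) and with upper-quartile scaling (0.0554), in a range of 0.000601 to 0.162. Without HFD library 411 the log2 fold change was 1.44 for Igf2, 1.81 for Igfbp4 and 1.92 for Igfbp6, with adjusted p of 0.0342, 0.0134 and 0.0113.

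Of the other members, Igfbp3 stood at 11.5 and 9.79 CPM in HFD and 19.4, 19.6 and 17.1 CPM in SW libraries, which did not overlap, and narrowly missed the threshold (log2 fold change 0.81, SE 0.23, adjusted p = 0.0566). It passed with DESeq2 (0.0234), in a range of 0.0234 to 0.207. Igf1r stood at 2.72 and 3.86 CPM in HFD and 6.91, 7.11 and 5.92 CPM in SW libraries, again with no overlap (log2 fold change 1.01, SE 0.36, adjusted p = 0.0851). Over all genes tested 58.6% had no overlap between these diets. Igf1 stood at 188 and 109.6 CPM in HFD and 89.0, 82.1 and 109 CPM in SW libraries, with library 212 far above the other 4. Its difference did not pass (log2 fold change -0.67, SE 0.29, adjusted p = 0.125), but did without HFD library 411 (log2 fold change -1.01, adjusted p = 0.0199), in a range of 0.0199 to 0.654. Igfbp2 stood at 0.638 and 9.45 CPM in the HFD libraries, which lie on either side of the 2.99, 2.52 and 2.96 CPM of the SW libraries (log2 fold change -0.83, SE 0.92, adjusted p = 0.506). Without HFD library 411 its log2 fold change was 2.13 with an adjusted p of 0.0189, in a range of 0.0189 to 0.876. Igf2r, Igfbp5 and Igfbp7 overlapped between the diets, with adjusted p of 0.422, 0.904 and 0.977.

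**Figure D3:**
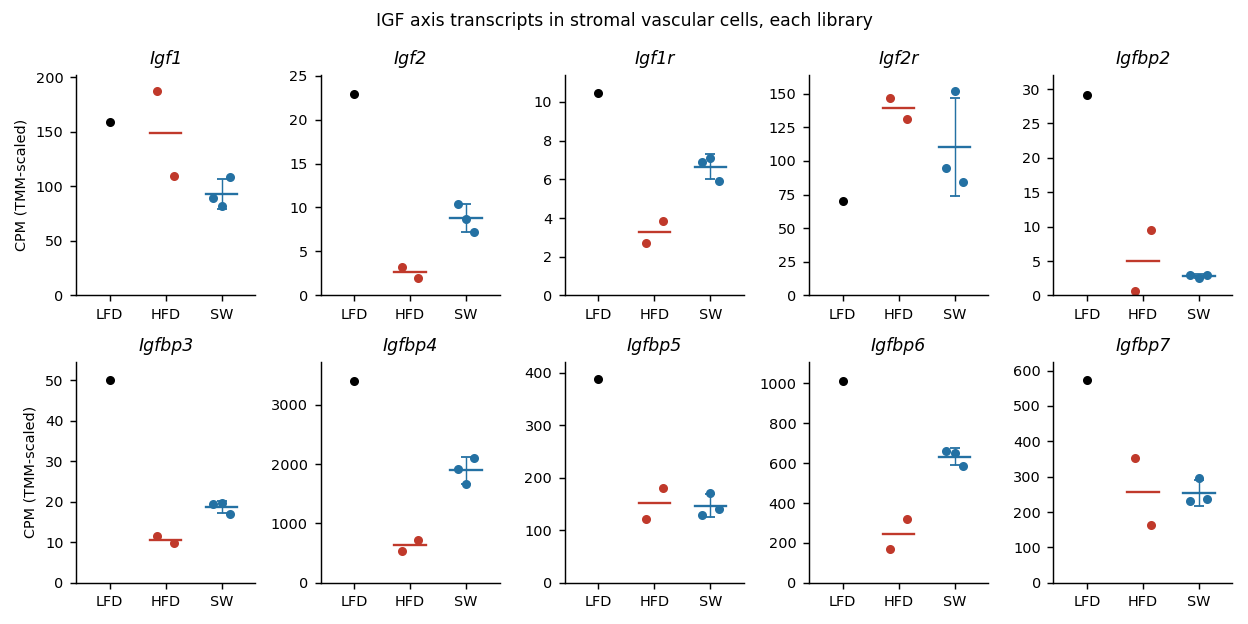
Levels of the 10 genes in the 6 SVC libraries, in TMM-scaled CPM on the vertical axis and by diet (LFD, n = 1; HFD, n = 2; SW, n = 3) on the horizontal axis, with points for libraries and the mean ± SD for SW. Igf2, Igfbp4 and Igfbp6 are highest in the LFD library and lowest in the HFD libraries, and both HFD libraries stand far apart for Igfbp2.

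SVC against adipocytes in SW mice, 3 libraries each, asks in which fraction the RNA of each member is higher. Of the 10 members 7 passed, 6 higher and 1 lower in SVC, beside 68.4% of the 17441 genes tested (11925), so a share like that of all genes. The members' median log2 difference was 0.89, against 0.086 over all genes. Without adipocyte SW library 407 the count of members was 4 and that over all genes 11119. On the scale shared by both fractions, Igfbp6 stood at 778, 797 and 698 CPM in SVC and 106, 73.8 and 80.3 CPM in adipocyte libraries. It was 8.74-fold higher in SVC (log2 fold change 3.13, SE 0.30, adjusted p = 1.35e-06). Igfbp4 stood at 2256, 2029 and 2509 CPM in SVC and 639, 492 and 534 CPM in adipocyte libraries, 4.08-fold higher in SVC (log2 fold change 2.03, SE 0.21, adjusted p = 2.56e-06). Igf1r stood at 8.11, 8.69 and 7.06 CPM in SVC and 0.937, 0.912 and 1.67 CPM in adipocyte libraries, 6.72-fold higher in SVC (log2 fold change 2.75, SE 0.37, adjusted p = 2.54e-05). The calls of these 3 held in every alternative run. The fractions did not overlap for 8 of the 10 members, these 3 among them, and for 70.8% of all genes tested.

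Igf1 was the member with more RNA in adipocyte libraries, at 104, 100.4 and 129 CPM in SVC and 253, 199 and 193 CPM in adipocytes (log2 fold change -0.95, SE 0.19, adjusted p = 0.000519), in every alternative run. Igf2 was higher in SVC (log2 fold change 0.96, SE 0.28, adjusted p = 0.00756), a call lost without adipocyte SW library 407 or SVC SW library 412 (log2 fold changes 0.78 and 0.74, with adjusted p of 0.0514 and 0.0564), in a range of 0.00218 to 0.0564. Igf2r was higher too (log2 fold change 0.82, SE 0.25, adjusted p = 0.0114), and lost its call without adipocyte SW library 407 or SVC SW library 413 (log2 fold changes 0.65 and 0.40, with adjusted p of 0.0755 and 0.159), in a range of 0.00195 to 0.159. Igfbp5 passed narrowly (log2 fold change 0.61, SE 0.25, adjusted p = 0.0423) and was lost without adipocyte SW library 407, adipocyte SW library 408, SVC SW library 412, SVC SW library 413 or SVC SW library 414 (log2 fold changes 0.33, 0.61, 0.60, 0.36 and 0.54, with adjusted p of 0.269, 0.0874, 0.0708, 0.245 and 0.103), and with no filter on low counts (0.0520) and with at least 10 counts required in every library (0.0571), in a range of 0.0158 to 0.269. Igfbp2 did not pass (log2 fold change 1.07, SE 0.72, adjusted p = 0.200), other than in a fit of the compared groups alone (0.0292), in a range of 0.0292 to 0.478. Igfbp3 and Igfbp7 did not pass, with log2 differences of -0.015 and 0.060 and adjusted p of 0.941 and 0.836. In the same comparison 7 of 7 adipocyte markers were lower in SVC, and 8 of 9 macrophage, 7 of 8 fibroblast and progenitor, 5 of 6 mesothelial, 4 of 6 T cell, 3 of 4 B cell and 5 of 5 erythroid markers were higher. Of 8 endothelial markers 5 were lower and 1 higher, and of 7 mural markers 3 were higher and 1 lower. Their part in the members' differences was not tested.

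In HFD mice, with 2 SVC and 3 adipocyte libraries, 4 of the 10 members passed beside 29.1% of genes (5078), not far from the share of all genes. Their median log2 difference was 0.10, against 0.077 over all genes. Igfbp6 stood at 178 and 381 CPM in SVC and 58.6, 57.7 and 70.3 CPM in adipocytes (log2 fold change 2.17, SE 0.30, adjusted p = 0.000355). Both SVC libraries were above every adipocyte library, and the log2 difference was 2.61 without SVC library 212 and 1.51 without SVC library 411. Igfbp4 stood at 574 and 855 CPM in SVC and 380.4, 358 and 391 CPM in adipocytes (log2 fold change 0.92, SE 0.22, adjusted p = 0.00825), a call lost without SVC HFD library 411 (log2 fold change 0.60, adjusted p = 0.0873) and in a fit of the compared groups alone (0.0599), in a range of 2.21e-05 to 0.0873, and at 1.18 without SVC library 212. Igfbp3 was lower in SVC (log2 fold change -0.70, SE 0.19, adjusted p = 0.0146), with the call lost without SVC HFD library 411 (log2 fold change -0.67, adjusted p = 0.0734) and in a fit of the compared groups alone (0.0685), in a range of 0.00350 to 0.0734, and at -0.74 without SVC library 212. The call of Igfbp2 (log2 fold change 2.63, SE 0.77, adjusted p = 0.0221) rested on SVC library 411, whose 11.2 CPM stand beside 0.678 CPM in library 212 and 1.21, 0.607 and 1.05 CPM in adipocytes. Its log2 difference was 3.57 without library 212, 1.45 with limma-voom and -0.47 without library 411. The call was lost without adipocyte HFD library 402, adipocyte HFD library 403 or SVC HFD library 411 (log2 fold changes 2.37, 2.72 and -0.47, with adjusted p of 0.0813, 0.0566 and 0.717) and with limma-voom (0.276), with counts thinned to the smallest library (0.0574) and in a fit of the compared groups alone (0.104), in a range of 0.000219 to 0.717. Igf1 did not pass (log2 fold change -0.56, SE 0.21, adjusted p = 0.0580) but did without SVC HFD library 212 (log2 fold change -0.90, adjusted p = 0.00567) and with DESeq2 (0.0182) and with limma-voom (0.0455), in a range of 0.00567 to 0.394. Igf2, Igf1r, Igf2r, Igfbp5 and Igfbp7 had adjusted p of 0.122, 0.561, 0.748, 0.374 and 0.797. The counts of members and of all genes called were 1 and 2528 without SVC library 411, 1 and 2030 in a fit of the compared groups alone, and 3 and 3255 without adipocyte library 402. Of the markers, 7 of 7 adipocyte, 5 of 8 endothelial and 3 of 7 mural were lower in SVC, and 3 of 9 macrophage, 4 of 6 mesothelial, 4 of 8 fibroblast and progenitor, 6 of 6 T cell, 4 of 4 B cell and 5 of 5 erythroid were higher. Their part in the members' differences was not tested.

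Whether the change from HFD to SW mice differed between the fractions was tested as an interaction over the same 11 libraries. Of the 10 members 3 passed, beside 27.1% of genes (4727) and so near their share, each with a change that was more positive in SVC. The members' median was 0.82, against -0.037 over all genes. For Igf1r the fit of each fraction gave a change of 1.01 in SVC, which did not pass by itself, and -1.32 in adipocytes. The difference between the changes was 2.43 on the log2 scale (SE 0.54, adjusted p = 0.00616). It was called in every alternative run, and was 2.13 without SVC HFD library 212 and 2.70 without 411. For Igf2 the difference was 1.65 (SE 0.43, adjusted p = 0.0130), with a change of 1.74 in SVC and 0.22 in adipocytes, and it was lost with counts thinned to the smallest library (0.0558), in a range of 0.00231 to 0.0558. It was 1.95 without SVC HFD library 212 and 1.32 without 411. For Igfbp4, which rose in both fractions, the difference was 1.10 (SE 0.30, adjusted p = 0.0174), and it was lost without SVC HFD library 212 (log2 fold change 0.84, adjusted p = 0.0638), in a range of 9.54e-05 to 0.0638. It was 1.32 without SVC HFD library 411. Among the rest, Igfbp3 (0.0563), Igf2r (0.0790) and Igfbp6 (0.102) had the lowest adjusted p. Igfbp3 passed with DESeq2 (0.0212), with RLE scaling (0.0413) and with counts thinned to the smallest library (0.0304), in a range of 0.0212 to 0.147. Igf2r passed without adipocyte HFD library 402 (log2 fold change 1.16, adjusted p = 0.0372) and with DESeq2 (0.0349), in a range of 0.0349 to 0.232. Igfbp6 passed without SVC HFD library 411 (log2 fold change 1.51, adjusted p = 0.00665) and with DESeq2 (0.0405), in a range of 0.00665 to 0.358. Igf1 passed without SVC HFD library 411 (log2 fold change -0.76, adjusted p = 0.0271), in a range of 0.0271 to 0.944. Igfbp2 passed without SVC HFD library 212 (log2 fold change -2.50, adjusted p = 0.0239), in a range of 0.0239 to 0.896, and its sign turned without SVC HFD library 411. The counts of members and of all genes called were 6 and 5486 with DESeq2, 5 and 6622 without SVC HFD library 411, and 3 and 2936 without SVC HFD library 212. Of 7 mural markers 5 had a more positive and 1 a more negative change in SVC, and of 9 macrophage markers 3 had a more positive change. Of 8 endothelial markers 1 had a more positive and 1 a more negative change, and 1 of 8 fibroblast and progenitor markers had a more positive change. The part of all these was not tested.

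The mixture of binding proteins was described as the share of each in their summed CPM per kilobase, with no test. The sum was 551, 683 and 507 CPM per kilobase in LFD, 473, 414 and 434 in HFD and 574, 464 and 453 in SW adipocytes. In SVC it was 2961 in the LFD library, 649 and 776 in HFD and 1551, 1596 and 1557 in SW libraries, so SVC of SW mice held more binding protein RNA per length than any adipocyte library. Igfbp7 made up 50.5% ± 2.51% (SD, n = 3) of the sum in LFD, 57.7% ± 3.33% (SD, n = 3) in HFD and 49.0% ± 3.21% (SD, n = 3) in SW adipocytes. All HFD libraries had a larger Igfbp7 share than all other adipocyte libraries. Igfbp3 took 4.50% ± 0.411% (SD, n = 3) in LFD, 1.83% ± 0.219% (SD, n = 3) in HFD and 1.92% ± 0.410% (SD, n = 3) in SW adipocytes, and Igfbp2 took 1.20, 0.593 and 2.13% of the sum in the LFD libraries and at most 0.358% in the others. In SVC of SW mice Igfbp6 took 43.4% ± 2.70% (SD, n = 3) and Igfbp4 took 37.7% ± 4.45% (SD, n = 3). In SVC of HFD mice the Igfbp7 share was 48.0 and 20.8% and the Igfbp6 share was 24.7 and 44.1% in libraries 212 and 411, which differ widely.

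**Figure D4:**
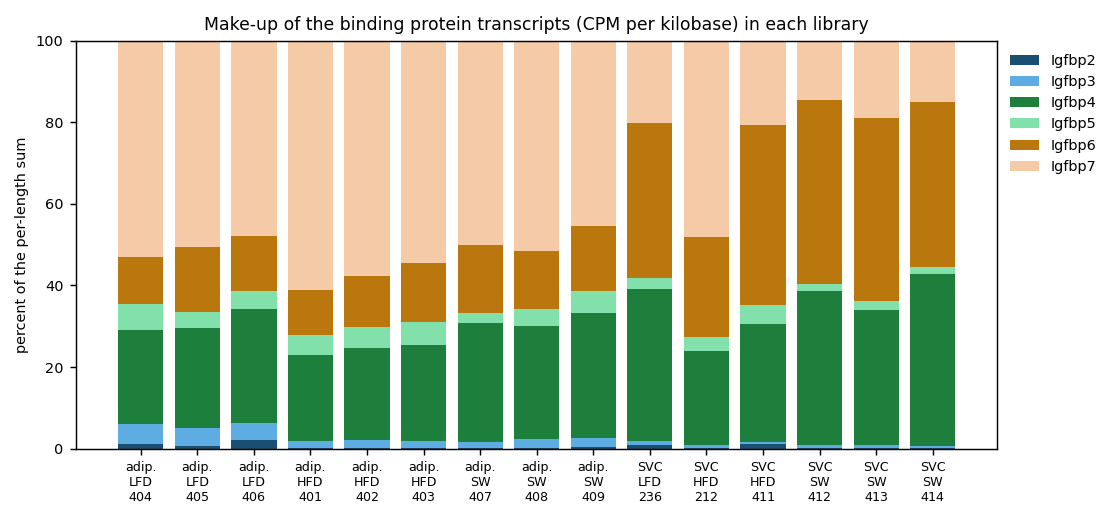
Shares of the 6 binding proteins, in percent of their summed CPM per kilobase, on the vertical axis, for each of the 15 libraries on the horizontal axis, grouped by fraction and diet. Igfbp7 fills 45.4% to 61.1% of each adipocyte bar, whereas Igfbp6 and Igfbp4 fill most of each SVC bar of LFD and SW mice.

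The balance of receptors and ligands was read per kilobase as well. Igf2r exceeded Igf1r by ratios of 30.8, 41.2 and 33.3 in LFD, 73.6, 79.4 and 69.2 in HFD and 92.8, 109 and 62.0 in SW adipocytes. These ratios are imprecise, because Igf1r had only 10 to 82 counts per adipocyte library, with the lowest in SW mice. In SVC the ratios were 8.62 in the LFD library, 69.3 and 43.6 in HFD and 17.7, 27.5 and 18.4 in SW libraries. The ratio was thus higher in every HFD library than in the LFD and SW libraries of SVC, while in adipocytes HFD and SW overlapped above LFD. The ratio of Igf1 to Igf2 in SW adipocytes was 35.4, 21.6 and 24.8, which is far above the LFD libraries and within the span of the HFD libraries. In SVC it was 4.66 in the LFD library, 38.7 and 36.7 in HFD and 5.72, 6.31 and 10.1 in SW libraries. After the switch this ratio therefore lay nearer to the LFD library in SVC and among the HFD libraries in adipocytes.

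The surrounding pathway was read from 54 listed genes, of which 46 were tested in adipocytes. Between HFD and LFD mice 15 were higher and 13 lower, beside 51.5% of all genes called, with a median log2 fold change of -0.014. Whether the share of the list differs from that of all genes was not tested, here or in the comparisons that follow. Igf2bp2, an RNA binding protein named for its binding of Igf2 transcripts, stood at 4.28, 3.71 and 4.22 CPM in LFD, 51.9, 36.3 and 59.4 CPM in HFD and 27.9, 21.9 and 18.0 CPM in SW libraries. It rose 12.2-fold in HFD mice (log2 fold change 3.61, SE 0.24, adjusted p = 6.40e-06), opposite to Igf2 itself. H19, the imprinted RNA encoded beside Igf2, stood at 1.11, 0.928 and 0.396 CPM in LFD, 2.33, 2.84 and 3.80 CPM in HFD and 0.631, 0.721 and 1.14 CPM in SW libraries. It rose as well (log2 fold change 1.86, SE 0.39, adjusted p = 0.00293). Irs2, a docking protein of both insulin and IGF receptors, rose (log2 fold change 2.06, SE 0.71, adjusted p = 0.0331), but lost its call without LFD library 405, LFD library 406, HFD library 401, HFD library 402 or HFD library 403 (log2 fold changes 1.46, 1.91, 2.21, 2.07 and 1.84, with adjusted p of 0.125, 0.102, 0.0507, 0.0609 and 0.0947) and with no filter on low counts (0.0973), in a range of 0.00805 to 0.125. Ccn4, a matrix protein with a domain like that of the binding proteins, rose (log2 fold change 1.85, SE 0.43, adjusted p = 0.00538).

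Among the pathway genes that fell, Stc2, an inhibitor of the protease that cleaves Igfbp4, stood at 16.5, 20.6 and 23.5 CPM in LFD, 5.03, 6.68 and 4.20 CPM in HFD and 8.94, 10.6 and 13.5 CPM in SW libraries. It fell in HFD mice (log2 fold change -1.93, SE 0.22, adjusted p = 9.71e-05). Cish, a feedback inhibitor induced by growth hormone signals, fell (log2 fold change -1.83, SE 0.36, adjusted p = 0.00216), and so did Plagl1, an imprinted transcription factor (log2 fold change -1.73, SE 0.26, adjusted p = 0.000469). Igfals, the subunit that joins Igfbp3 and IGF1 in the large complex of blood, stood at 79.3, 62.8 and 46.9 CPM in LFD, 17.4, 41.3 and 22.2 CPM in HFD and 41.6, 23.8 and 49.8 CPM in SW libraries. It fell in HFD mice (log2 fold change -1.21, SE 0.35, adjusted p = 0.0153), though not without LFD library 404 or HFD library 403 (log2 fold changes -1.02 and -1.09, with adjusted p of 0.0513 and 0.0561) or with no filter on low counts (0.0578), in a range of 0.00177 to 0.0578. Ghr, the growth hormone receptor, stood at 771, 668 and 870.2 CPM in LFD and 320.2, 644 and 401 CPM in HFD libraries and fell (log2 fold change -0.76, SE 0.27, adjusted p = 0.0406), a call lost without LFD library 404, LFD library 405, LFD library 406, HFD library 401 or HFD library 403 (log2 fold changes -0.76, -0.85, -0.66, -0.56 and -0.67, with adjusted p of 0.0769, 0.0574, 0.118, 0.124 and 0.124), in a range of 0.00690 to 0.124. Insr, the insulin receptor, was lower in every HFD library (log2 fold change -0.53, SE 0.16, adjusted p = 0.0218), a call lost without LFD library 404, LFD library 406, HFD library 401 or HFD library 403 (log2 fold changes -0.49, -0.47, -0.47 and -0.51, with adjusted p of 0.0579, 0.0737, 0.0686 and 0.0663), in a range of 0.00784 to 0.0737. Igfbp1, the binding protein made mostly by liver, had at most 7 counts in any adipocyte library and at most 19 in any SVC library.

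Between SW and HFD adipocytes 5 pathway genes were higher and 12 lower, beside 31.4% of all genes, with a median log2 fold change of -0.15. H19 (log2 fold change -1.83, SE 0.37, adjusted p = 0.00868) and Igf2bp2 (log2 fold change -1.13, SE 0.20, adjusted p = 0.00607) fell and Stc2 rose (log2 fold change 1.05, SE 0.22, adjusted p = 0.00966) in every alternative run. Ccn4 fell (log2 fold change -1.77, SE 0.42, adjusted p = 0.0135), except without HFD library 403 (log2 fold change -1.64, adjusted p = 0.0630), in a range of 0.00448 to 0.0630. Cish rose (log2 fold change 1.34, SE 0.36, adjusted p = 0.0204), a call lost without HFD library 401, HFD library 403, SW library 408 or SW library 409 (log2 fold changes 1.28, 1.27, 1.23 and 1.23, with adjusted p of 0.0657, 0.0789, 0.0539 and 0.0540), in a range of 0.00244 to 0.0789. Plagl1 rose (log2 fold change 1.01, SE 0.26, adjusted p = 0.0176), a call lost without HFD library 401, HFD library 403 or SW library 408 (log2 fold changes 0.89, 0.99 and 0.79, with adjusted p of 0.0638, 0.0656 and 0.0538), in a range of 0.00196 to 0.0656. Between SW and LFD adipocytes 6 were higher and 6 lower, beside 17.1% of all genes, with a median of -0.053. Igf2bp2 was still above LFD mice (log2 fold change 2.48, SE 0.24, adjusted p = 0.000104), as was Socs3, a feedback inhibitor of cytokine receptors (log2 fold change 2.26, SE 0.36, adjusted p = 0.00187). Foxo1, a transcription factor that insulin and IGF signals restrain, was lower (log2 fold change -0.82, SE 0.11, adjusted p = 0.000585), and so was Pik3r1, a subunit of the kinase PI3K (log2 fold change -0.71, SE 0.14, adjusted p = 0.00667). H19 did not pass between SW and LFD adipocytes, with a log2 fold change of 0.033 (adjusted p = 0.991). It had only 7, 18 and 3 counts in LFD and 6, 12 and 16 in SW libraries, and whether its levels are equal was not tested. Over HFD and SW together against LFD, 10 were higher and 12 lower, beside 40.1% of all genes, with a median of 0.0067.

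In SVC 51 pathway genes were tested. Between SW and HFD mice 3 were higher and 6 lower, with a median of -0.20, beside 17.5% of all genes, which is the same share. Ccn5, a matrix protein related to Ccn4, rose (log2 fold change 2.39, SE 0.33, adjusted p = 0.0362), a call lost without SW library 412 or SW library 413 (log2 fold changes 2.37 and 2.39, with adjusted p of 0.155 and 0.0541), in a range of 9.35e-09 to 0.155. The 4 with the largest falls were Sos1 (log2 fold change -2.64, SE 0.63, adjusted p = 0.0431), Jak2 (log2 fold change -2.48, SE 0.58, adjusted p = 0.0427), Pik3ca (log2 fold change -1.93, SE 0.40, adjusted p = 0.0381) and Pik3cb (log2 fold change -1.82, SE 0.41, adjusted p = 0.0407). All 4 lost their call with limma-voom and without HFD library 212 or SW library 412, 413 or 414. In this order of genes the log2 fold changes were -1.78, -1.53, -1.16 and -1.12 without HFD library 212 and -3.13, -3.01, -2.39 and -2.25 without HFD library 411. They were -2.31, -2.21, -1.84 and -1.76 without SW library 412, -3.29, -3.14, -2.21 and -2.13 without 413, -2.59, -2.36, -1.87 and -1.70 without 414 and -2.52, -2.34, -1.79 and -1.70 with limma-voom. Over the alternatives the adjusted p ranged from 0.00290 to 0.155 for Sos1, 0.00151 to 0.155 for Jak2, 0.00135 to 0.155 for Pik3ca and 0.00351 to 0.157 for Pik3cb. Against adipocytes, 19 were higher and 21 lower in SVC of SW mice, with a median of -0.069 and beside 68.4% of all genes, and 9 were higher and 11 lower in SVC of HFD mice, with a median of -0.068 and beside 29.1% of all genes. Ghr was far lower in SVC of SW mice (log2 fold change -4.84, SE 0.32, adjusted p = 1.66e-07) and of HFD mice (log2 fold change -4.13, SE 0.37, adjusted p = 1.57e-05). Lrp1, an endocytic receptor that binds Igfbp3, was higher in SVC of SW mice (log2 fold change 3.19, SE 0.26, adjusted p = 4.48e-07). Igfals was lower in SVC of SW mice (log2 fold change -3.29, SE 0.60, adjusted p = 0.000292). In the interaction 9 pathway genes had a more positive and 7 a more negative change in SVC, beside 27.1% of all genes and with a median of -0.25, led by Ccn5 at 2.85 (SE 0.54, adjusted p = 0.00321).

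The genes most like each member were sought over the 9 adipocyte libraries among 12386 genes, by the root mean square difference of centred log2 CPM. These libraries share the diet groups, so the likeness is a description. For Igf2, whose own SD over the libraries was 1.10, they were Amigo2 (0.26) and Map3k7cl (0.27). For Igfbp2 (SD 1.42) they were Pdlim3 (0.38) and Krt19 (0.40), of which Krt19 is also in the mesothelial list. For Igfbp3 (SD 0.77) they were Rgs5 (0.18) and Fam101b (0.20), of which Rgs5 is also the most abundant mural marker. For Igf2r (SD 0.75) they were Heatr5a (0.11) and Dennd4c (0.12), and for Igf1r (SD 0.64) Cadm4 (0.28) and Rasgrp3 (0.29). For Igfbp4 (SD 0.30) they were Sfi1 (0.071) and Dmap1 (0.074), and for Igfbp5 (SD 0.35) Sptbn1 (0.14) and Ptprf (0.15). For Igfbp6 (SD 0.34) they were Ppm1j (0.084) and Ddah2 (0.11). Igf1 and Igfbp7, which varied least, with an SD of 0.18 and 0.22, were nearest to Hsdl1 (0.065) and Pprc1 (0.066), and to Il4ra (0.089) and Klf13 (0.099).

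Promoter sequence was read for all members. RefSeq promoters on build GRCm38.p6, 250 bases before to 50 bases after each annotated start, matched 10 of the 10 members with 14 entries, 4 of them for Igf2 and 2 for Igfbp2. Both strands were searched for short motifs, and the share of 32851 promoters of the same length that hold each is given beside it. The E-box CACGTG was found in 2 of the 14 entries and in 7.15% of all promoters. The GC box GGGCGG was found in 6 of 14 and 35.7%, the CCAAT box CCAAT in 3 of 14 and 37.4%, and the TATA box TATAAA in 2 of 14 and 13.6%. The cyclic AMP response element TGACGTCA was in none of the 14 and in 1.79% of all promoters. No motif of these 5 overlaps another in the entries shown. At least 2 copies of the E-box, anywhere in the window, were found in 0.594% of all promoters. The E-box entries were Igf2r, with 2 copies shortly before the annotated start, and the upstream entry of Igfbp2. They are printed because they are the entries that hold an E-box, whose letters are in capitals, at chr17:12769657-12769956 on the minus strand for Igf2r and chr1:72824230-72824529 on the plus strand for Igfbp2. A match describes letters in this window and says nothing of a factor.
Igf2r: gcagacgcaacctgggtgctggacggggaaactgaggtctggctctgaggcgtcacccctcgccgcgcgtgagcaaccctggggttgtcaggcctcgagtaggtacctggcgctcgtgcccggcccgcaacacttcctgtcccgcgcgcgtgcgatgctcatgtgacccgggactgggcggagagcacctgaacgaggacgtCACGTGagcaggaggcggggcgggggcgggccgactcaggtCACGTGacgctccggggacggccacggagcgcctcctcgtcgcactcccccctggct
Igfbp2: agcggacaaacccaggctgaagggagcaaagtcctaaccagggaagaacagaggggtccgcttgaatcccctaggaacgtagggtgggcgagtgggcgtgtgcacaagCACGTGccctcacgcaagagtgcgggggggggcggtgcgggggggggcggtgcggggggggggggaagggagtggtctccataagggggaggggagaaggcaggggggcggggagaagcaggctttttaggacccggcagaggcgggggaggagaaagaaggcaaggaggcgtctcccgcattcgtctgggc

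By position, Igfbp2 and Igfbp5 are neighbours on chromosome 1 that point towards each other, and Igfbp3 lies beside Igfbp1 on chromosome 11. Of the neighbours Igfbp2 and Igfbp5, Igfbp2 fell between LFD and HFD adipocytes. Igfbp5 had a negative log2 fold change as well, which did not pass (-0.36, adjusted p = 0.193). The difference between these genes was not tested. The Igf2r gene is overlapped by Airn, the antisense RNA tied to its imprinting, which had 7 to 88 counts per library and a log2 fold change of 0.028 between HFD and LFD adipocytes (adjusted p = 0.919).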

How the data were processed

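Polyadenylated RNA of epididymal adipocytes and SVC was measured. The deposited values are estimated counts per gene: the authors mapped reads with Bowtie2 and counted them with RSEM, and the values are whole numbers with no normalization. Versions are not given, nor is it known how libraries sequenced in more than 1 run were combined. The submitters' processing notes name build mm9, whereas gene lengths here come from GENCODE release M21 (GRCm38) by identifier. SW titles say low fat diet while the treatment label gives the switch, which was used. Columns were grouped by their names, and 3 SVC columns were not used: the names of 2 are bare numbers, and that of 1 has NC in place of LF.

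Counts were fitted with edgeR 4.0.16 (R 4.3.3), its robust quasi-likelihood test, TMM factors and filterByExpr with a minimum count of 10, in 1 fit per fraction and 1 over both. P-values were adjusted by Benjamini-Hochberg over all genes tested, with a threshold of 0.05. Alternatives were DESeq2 1.42.0, limma 3.58.1 with voom, RLE and upper-quartile factors, no filter, at least 10 counts in every library, counts thinned to the smallest library, the compared groups alone, merged exon length for levels, and leaving out each library. Tables and figures used Python 3.11.15, pandas 2.3.3, numpy 2.4.6, scipy 1.17.1 and matplotlib 3.10.9. The scripts were tested on simulated data with known changes. Of changes of 1 on the log2 scale, 86% were called for HFD against LFD adipocytes. The share was 63% for SVC against adipocytes of SW mice and 9% for SW against HFD SVC. Of changes of 2 these shares were 100%, 97% and 70%. A member not called between SW and HFD SVC may thus still differ by such an amount. Library totals run from 5781902 to 23725647 counts, so genes at low counts are least precise in the smallest libraries.

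All 10 members are named. Of the pathway list, the 4 largest rises and falls between HFD and LFD adipocytes and the 4 largest falls between SVC of SW and HFD mice are named, with partners of members. In other comparisons the further pathway genes named were chosen by role after values were seen, as was Airn, a listed gene that overlaps Igf2r. Of the lists of markers of 9 cell types the most abundant gene is named for some lists and libraries, and the gene at 0 counts is named. Of genes like a member the nearest 2 are named, among genes whose average log2 CPM reaches 1. Shares of all genes with no overlap, or highest or lowest in the LFD library of SVC, were added after values were seen. Members and lists were chosen with earlier results of these data known.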

Additional observations from a re-analysis of the deposited data

Results flagged for a closer look

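For 3 of the 10 genes, beside 27.1% of the genes tested (4727 of 17441), the change between HFD and SW mice differed between SVC and adipocytes in the test of that difference itself, so their share is near that of all genes. Igf2 had a difference of 1.65 on the log2 scale (SE 0.43, adjusted p = 0.0130), with a change of 1.74 in SVC and 0.22 in adipocytes, and lost its call with counts thinned to the smallest library (0.0558), in a range of 0.00231 to 0.0558. Igf1r had a difference of 2.43 (SE 0.54, adjusted p = 0.00616), with a change of 1.01 in SVC and -1.32 in adipocytes. Its change in SVC did not pass by itself (adjusted p = 0.0851). That in adipocytes passed (adjusted p = 0.0265) but lost its call in several alternatives. Igfbp4 had a difference of 1.10 (SE 0.30, adjusted p = 0.0174), with a change of 1.58 in SVC and 0.57 in adipocytes, and lost its call without SVC HFD library 212 (log2 fold change 0.84, adjusted p = 0.0638), in a range of 9.54e-05 to 0.0638.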

How the results depend on the processing

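Of 1160 values of the 10 members over 8 comparisons and their alternatives, 1031 kept direction and side of the threshold, 46 lost the call, 32 gained it and 51 turned sign. Of 1091 values of named pathway genes 949 kept both and 142 lost the call. Signs turned for members with no call, and for Igfbp2 between SVC and adipocytes of HFD mice without SVC library 411. The cause was not tested.

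With limma-voom the log2 fold change was 0.022 for Igfbp4 and 0.012 for Igfbp6 in SW against LFD adipocytes, 0.034 for Igf1r in HFD and SW together against LFD, and 0.25 for Igfbp2 and 0.073 for Igfbp7 in SW against HFD SVC. With no filter it was 0.0024 for Igfbp4 in SW against LFD adipocytes and 0.026 for Igf1r in HFD and SW together, and with at least 10 counts in every library 0.0060 and 0.037. In a fit of the compared groups alone Igfbp4 was at 0.013 in SW against LFD adipocytes. In SW against HFD SVC Igfbp7 was at 0.0065 with DESeq2 and 0.0065 with RLE factors, and with upper-quartile factors Igfbp7 was at 0.072 and Igfbp5 at 0.0020. In SVC against adipocytes of SW mice Igfbp3 was at 0.047 with DESeq2, 0.047 with RLE factors, 0.026 with upper-quartile factors, 0.15 with thinned counts and 0.042 with the compared groups alone.

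Leaving out 1 library at a time moved log2 fold changes through 0 over these ranges. In SW against HFD adipocytes they were Igf2 -0.037 to 0.62 and Igfbp7 -0.18 to 0.061. In SW against LFD adipocytes they were Igfbp4 -0.12 to 0.11 and Igfbp6 -0.22 to 0.24, and in HFD and SW together Igf1r -0.24 to 0.27. In SW against HFD SVC they were Igfbp2 -1.68 to 2.13, Igfbp5 -0.27 to 0.27 and Igfbp7 -0.46 to 0.71. In SVC against adipocytes they were Igfbp3 -0.20 to 0.043 and Igfbp7 -0.19 to 0.092 for SW mice, and Igf1r -0.051 to 0.61, Igf2r -0.34 to 0.062, Igfbp2 -0.47 to 3.57, Igfbp5 -0.083 to 0.66 and Igfbp7 -0.66 to 0.29 for HFD mice. In the interaction they were Igfbp2 -2.50 to 1.44, Igfbp5 -0.050 to 0.59 and Igfbp7 -0.32 to 0.72.

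Counts of members called with 1 library left out were 1 to 3 for SW against HFD adipocytes, 0 to 5 for SW against HFD SVC, 4 to 7 and 1 to 5 for SVC against adipocytes of SW and HFD mice, and 3 to 5 for the interaction. The low end of 0 in SVC is edgeR's, with 3 to 6 members at an unadjusted p under 0.05 in those fits, and 4 by DESeq2 and 3 by limma-voom with all libraries. Counts over all genes were 1522 to 4290 and 0 to 6213 for SW against HFD adipocytes and SVC, 10690 to 11558 and 2528 to 7044 for SVC against adipocytes of SW and HFD mice, and 2936 to 6622 for the interaction. At the low end of 0 in SVC edgeR gave 4217 and 5435 genes at an unadjusted p under 0.05. With all libraries SW against HFD SVC gave 5222 genes with DESeq2 and 1719 with limma-voom. SVC against adipocytes of HFD mice gave 1 member and 2030 genes with the compared groups alone, and the interaction gave 6 members and 5486 genes with DESeq2.

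No paired analysis was possible because the columns carry no replicate numbers of the labels. Where a library was left out of HFD SVC, the remaining library was taken to vary like the other groups. With merged exon length 27 of 60 group levels per kilobase moved by more than 1 SD or lacked replicates. No comparison with the single LFD library of SVC was tested. The split of macrophage and adipocyte RNA within the adipocyte libraries was not tested, and protein was not analysed here.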
